A study of Mus musculus with 6 samples.

Results

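The NF-kB subunits and the inhibitor of kappa B (IkB) proteins are described here through their 10 genes, taken as the rows of the deposited gene matrix named Nfkb1, Nfkb2, Rel, Rela, Relb, Nfkbia, Nfkbib, Nfkbie, Nfkbiz and Bcl3, out of 56636 genes in all. Each name matched 1 row. Messenger RNA was measured in RAW264.7, a single transformed mouse macrophage-like line of wild-type genotype in the labels, 24 h after addition of vehicle or of a compound abbreviated 25-HC (3 libraries per group, all grown in serum-containing medium with antibiotics). The labels used here give neither the dose nor the full name of the compound, and whether libraries of a group stem from independent cultures is not stated, so the p-values reflect only how far these libraries differ among themselves, which may be technical. The series title places the experiment in work on cholesterol homeostasis and a cancer-cell-secreted microRNA, and the comparison asks which transcripts differ after the compound. The values are TPM (abundance divided by transcript length and scaled to the same total in every library), which allow levels of different genes to be compared but keep no sequencing depth.

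NF-kB factors are dimers assembled from the 5 Rel-homology proteins. RELA, REL and RELB carry transactivation domains, whereas NFKB1 and NFKB2 are made as precursors that are processed to DNA-binding subunits without one. In resting macrophages the classical inhibitors, encoded by Nfkbia, Nfkbib and Nfkbie, hold dimers in the cytoplasm until the IkB kinase marks them for degradation. Nuclear IkB proteins such as those of Nfkbiz and Bcl3 instead bind NF-kB at its target genes, and several genes of the family are themselves NF-kB targets, which forms the feedback the pathway is known for.

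Promoter windows of the family are shown first because they let a reader see which of the genes carry the DNA motif bound by the proteins they encode. RefSeq windows (build GRCm38.p6, 250 bases before to 50 after the transcription start) were found for 7 of the 10 genes (Nfkb2, Rel, Rela, Nfkbia, Nfkbib, Nfkbie and Bcl3). They were searched on both strands for the kappa B consensus motif. The motif was present in at least 1 window of 5 of these 7 genes, and it was present in 9.55% of the 27025 genes in the table (8.46% of its 32851 windows, all 300 bases long). Nfkb2, Rel, Nfkbia, Nfkbie and Bcl3 had a match, while Rela and Nfkbib had none. The windows of Nfkbia (chr12:55492598-55492897, minus strand), the first of 3 windows of Nfkb2 (chr19:46304487-46304786, plus strand) and that of Nfkbib (chr7:28766595-28766894, minus strand) are printed 5′ to 3′ with every matching base in capitals. They were picked, after the values were seen, as the most variable inhibitor gene, the gene with the most matches, and the inhibitor gene that varied least.
Nfkbia: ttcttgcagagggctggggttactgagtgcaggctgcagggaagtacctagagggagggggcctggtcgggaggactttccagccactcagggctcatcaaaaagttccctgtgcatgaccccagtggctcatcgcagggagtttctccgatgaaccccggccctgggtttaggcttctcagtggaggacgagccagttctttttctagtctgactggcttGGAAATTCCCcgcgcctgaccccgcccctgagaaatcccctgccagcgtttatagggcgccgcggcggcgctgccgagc
Nfkb2: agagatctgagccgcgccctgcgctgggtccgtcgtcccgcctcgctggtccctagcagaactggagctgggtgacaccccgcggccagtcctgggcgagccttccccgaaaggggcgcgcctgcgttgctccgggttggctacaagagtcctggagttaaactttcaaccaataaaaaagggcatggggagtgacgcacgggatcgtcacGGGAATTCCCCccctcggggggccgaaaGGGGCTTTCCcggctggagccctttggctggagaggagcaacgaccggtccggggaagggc
Nfkbib: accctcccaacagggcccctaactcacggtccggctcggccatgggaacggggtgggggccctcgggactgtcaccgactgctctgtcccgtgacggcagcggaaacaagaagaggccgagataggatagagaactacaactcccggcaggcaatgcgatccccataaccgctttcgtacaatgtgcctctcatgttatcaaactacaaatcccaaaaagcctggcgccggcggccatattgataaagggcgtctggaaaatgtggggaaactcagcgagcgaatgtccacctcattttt
In Nfkbia the match lies at positions -29 to -20 from the start, on the strand opposite to the printed one. The first Nfkb2 window holds 3 match positions, of which those starting at -39 and -38 overlap and form 1 run of capitals, and the third starts at -11. A match is only a run of letters, and binding was not measured in these cells.

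No gene of the family passed the test between 25-HC and vehicle. The test was limma on log2(TPM + 1) over 12092 genes averaging 1 TPM or more across the libraries, Benjamini-Hochberg adjusted over those genes, at a threshold of 0.05. All 10 genes were above that minimum, and their adjusted p ran from 0.389 to 0.821. Over all tested genes 1 was called (Snord16a, a small nucleolar RNA outside the family; 0.00827%), with 996 higher and 356 lower at an unadjusted p under 0.05; none of the 10 family genes was among these. In 5 of the 10 genes (Nfkb1, Rel, Nfkbib, Nfkbiz and Bcl3) every 25-HC library lay above every vehicle library, and in none did every 25-HC library lie below. Among all tested genes, 22.6% were separated upward in this way and 8.1% downward. Without vehicle 3 the upward count was 8, with Relb and Nfkbie the exceptions and a smallest limma adjusted p of 0.052 (Rel), but 59.5% of all tested genes then separated upward and 13.2% downward. Without vehicle 2 it was 5, with Nfkbie below, against 23.6% upward and 16.9% downward over all tested genes. The median log2 difference was 0.57 over the 10 genes and 0.52 over all tested genes, so the family lay close to the centre of the whole table. These differences also carried the spread of the vehicle libraries: 11238, 9492 and 11994 genes reached 1 TPM in vehicle 1, 2 and 3, against 11971 to 12005 in 25-HC, and the 10 genes summed to 340, 120 and 515 TPM in vehicle 1, 2 and 3 against 483 to 494 TPM in 25-HC. A lower level per cell and a lower share of expressing cells cannot be told apart in bulk RNA.

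Markers of the line were present. Of 10 macrophage markers, 8 were at 1 TPM or more in all 6 libraries. Mertk was listed at 0 in all of them and Itgam was at 0.53 TPM in vehicle 2. The summed macrophage markers stood at 1741 to 2634 TPM in vehicle and 2613 to 2634 TPM in 25-HC. This sum hides moves of single markers: of 9 tested, 5 separated upward and 1 downward. Among all tested genes these shares were 22.6% and 8.1%. Other cell types left little signal: neutrophil markers added up to no more than 4.58 TPM in a library, lymphocyte markers to 4.77 TPM, fibroblast markers to 0.76 TPM and epithelial markers to 0.27 TPM, with Pdgfra at 0 throughout. Osteoclast markers, which this line can express, summed to 44.1 to 104 TPM in vehicle and 78.9 to 82.4 TPM in 25-HC.

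**Figure D1:**
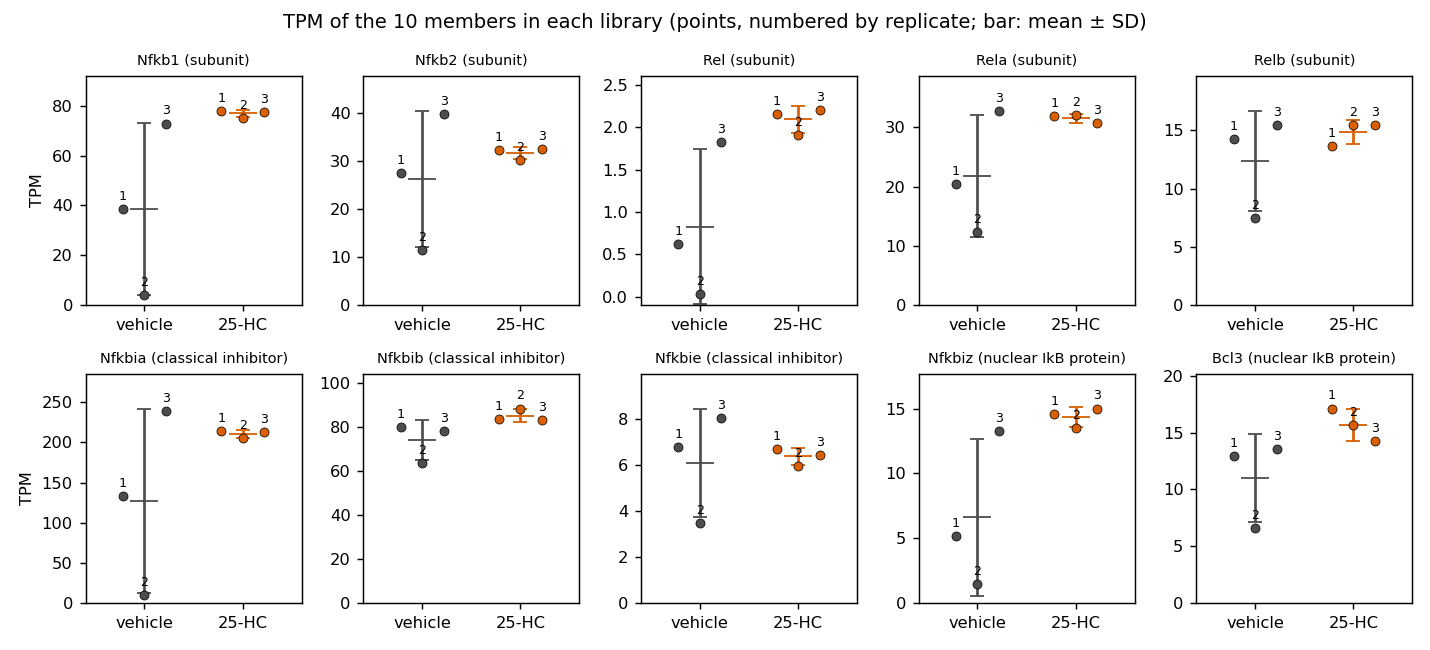
TPM of each of the 10 genes (vertical axes, 1 scale per gene) in the 3 vehicle and 3 25-HC libraries, numbered by replicate, with the mean and SD of each group. Vehicle 2 is the lowest library for every gene, while vehicle 3 lies near the 25-HC libraries.

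Nfkb1 was the most abundant subunit gene in the treated cells. It stood at 38.6, 3.99 and 72.9 TPM in vehicle 1, 2 and 3 against 78.0, 75.2 and 77.6 TPM in 25-HC 1, 2 and 3, the order kept below. All treated libraries lay above all vehicle libraries, but vehicle 3 was within a few TPM of them and vehicle 2 far below. The means were 38.5 ± 34.4 TPM (SD, n = 3) and 76.9 ± 1.49 TPM (SD, n = 3). The log2 difference on the log2(TPM + 1) scale was 1.67 (SE 0.96, limma adjusted p = 0.39), with a 95% interval from -0.65 to 3.995, and it was 0.53 without vehicle 2 and 0.077 against vehicle 3 alone.

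Nfkb2 encodes the precursor used in the alternative pathway, where it pairs with RELB. Its level was 27.5, 11.5 and 39.8 TPM in the vehicle libraries and 32.3, 30.2 and 32.5 TPM in the 25-HC libraries. The treated libraries lay between vehicle 1 and vehicle 3, so the groups overlapped. The log2 difference of 0.42 (SE 0.46, limma adjusted p = 0.533) became -0.06 with vehicle 2 left out and -0.32 when vehicle 3 alone was the reference. Each 25-HC library was below vehicle 3, and their mean was 0.796 of its level.

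Rela, which encodes the main transactivating subunit of the classical pathway, was at 20.5, 12.3 and 32.8 TPM in the vehicle libraries against 32.0, 32.1 and 30.7 TPM after 25-HC. Vehicle 3 exceeded all treated libraries. Its log2 difference was 0.61 (SE 0.38, limma adjusted p = 0.394), or 0.27 without vehicle 2 and -0.05 against vehicle 3 alone. Relb, whose product acts mainly with processed NFKB2, was at 14.3, 7.51 and 15.4 TPM in the vehicle libraries against 13.7, 15.4 and 15.5 TPM after 25-HC. These ranges overlapped, and apart from vehicle 2 all libraries were within 2 TPM of each other. The log2 difference of Relb was 0.30 (SE 0.34, limma adjusted p = 0.549), or -0.00090 without vehicle 2.

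Rel, the gene of the c-Rel subunit that is prominent in lymphocytes and activated myeloid cells, had the lowest level of the family. It was listed at 0.62, 0.03 and 1.83 TPM in the vehicle libraries against 2.16, 1.91 and 2.21 TPM after 25-HC. Treated libraries were above all vehicle libraries, by 0.08 TPM at the closest pair (25-HC 2 and vehicle 3). The log2 difference was 0.88 (SE 0.40, limma adjusted p = 0.389), or 0.53 without vehicle 2 and 0.13 against vehicle 3 alone. At this low level the value also moved with the pseudocount, to 1.95 with 0.1 and 0.30 with 5 in place of 1. As the only one of the 10 genes with a mean under 5 TPM, Rel dropped out when that stricter minimum was used.

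Among the inhibitors, Nfkbia was the most abundant and also the most scattered in absolute terms. Its product is the inhibitor that is degraded and resynthesised fastest after stimulation. Nfkbia was at 134, 9.34 and 239 TPM in vehicle 1, 2 and 3 against 214, 205 and 213 TPM after 25-HC. Vehicle 3 was above all treated libraries and vehicle 2 was 25.6-fold below vehicle 3, so the groups overlapped. The log2 difference was 1.61 (SE 1.13, limma adjusted p = 0.406), with a 95% interval from -1.12 to 4.34. It was 0.24 without vehicle 2 and -0.18 against vehicle 3 alone, where the treated mean was 0.882 of the vehicle 3 level.

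Nfkbib, whose product binds RELA and c-Rel dimers and turns over more slowly, varied least of the 10 genes over the vehicle libraries (1.26-fold from lowest to highest). It was at 79.8, 63.4 and 78.1 TPM in the vehicle libraries against 83.5, 88.2 and 83.2 TPM after 25-HC. Treated libraries were all higher, with 3.35 TPM between the nearest libraries of the groups. The means of 73.8 ± 9.04 and 85.0 ± 2.83 TPM (SD, n = 3 each) differed by 0.21 on the log2 scale (SE 0.20, limma adjusted p = 0.497), with a 95% interval from -0.29 to 0.70. The difference was 0.10 without vehicle 2 and 0.12 against vehicle 3 alone, and it turned to -0.42 when the libraries were rescaled by median ratio and to -0.04 when they were quantile normalized, both with overlap. Nfkbie, the third cytoplasmic inhibitor gene and an NF-kB target, was at 6.78, 3.47 and 8.04 TPM in the vehicle libraries against 6.71, 5.97 and 6.43 TPM after 25-HC. Only vehicle 2 was below the treated libraries, while vehicle 1 and 3 were above all of them. Its log2 difference of 0.11 (SE 0.35, limma adjusted p = 0.821) was the smallest of the family, and it was -0.19 without vehicle 2 and -0.30 against vehicle 3 alone.

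Both nuclear IkB genes separated upward on the deposited values. Nfkbiz, an inducible co-regulator of secondary inflammatory genes, was at 5.14, 1.45 and 13.3 TPM in the vehicle libraries against 14.6, 13.5 and 15.02 TPM after 25-HC. The nearest libraries, vehicle 3 and 25-HC 2, were 0.24 TPM apart. Its log2 difference was 1.36 (SE 0.64, limma adjusted p = 0.389), or 0.71 without vehicle 2 and 0.11 against vehicle 3 alone. Bcl3, whose product binds homodimers of the processed NFKB1 and NFKB2 subunits, was at 13.0, 6.57 and 13.6 TPM in the vehicle libraries against 17.1, 15.7 and 14.3 TPM after 25-HC. Here vehicle 1 and vehicle 3 agreed within 1 TPM and both lay below the treated libraries. The log2 difference of Bcl3 was 0.53 (SE 0.34, limma adjusted p = 0.397), or 0.22 without vehicle 2 and 0.19 against vehicle 3 alone.

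In order of level per transcript length, the treated cells had Nfkbia at 211 ± 5.01 TPM, Nfkbib at 85.0 ± 2.83 TPM, Nfkb1 at 76.9 ± 1.49 TPM, Nfkb2 at 31.7 ± 1.25 TPM and Rela at 31.6 ± 0.775 TPM (SD, n = 3 each). Below these came Bcl3 at 15.7 ± 1.43 TPM, Relb at 14.9 ± 1.01 TPM, Nfkbiz at 14.4 ± 0.774 TPM, Nfkbie at 6.37 ± 0.374 TPM and Rel at 2.09 ± 0.161 TPM. Neighbours in this order whose treated libraries overlapped were Nfkb2 and Rela, Bcl3 and Relb, and Relb and Nfkbiz. For the other 6 neighbouring pairs every treated library of the higher gene exceeded every one of the lower. The vehicle libraries broke this order. In vehicle 2 Nfkbib exceeded Nfkbia, Nfkb2 exceeded Nfkb1 and Rela exceeded Nfkb2. Nfkbie exceeded Nfkbiz in vehicle 1 and vehicle 2, and Relb exceeded Bcl3 in every vehicle library.

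The vehicle libraries did not scatter alike for all members. In vehicle 2 most members lay within the central range of transcripts of like length, whereas Nfkbia and Nfkb1 were much lower. Tested genes had a median log2 difference of -1.27 between vehicle 2 and vehicle 3, and the members ranged from -0.30 (Nfkbib) to -4.54 (Nfkbia). Nfkb1 was at -3.89 and Nfkbiz at -2.54, and only 1.01%, 2.05% and 14.6% of the tested genes had a lower difference than Nfkbia, Nfkb1 and Nfkbiz. After a trend on transcript length was subtracted per library these shares were 0.548%, 2.66% and 19.5%. The longest annotated transcript of Nfkbia, at 1578 bases, is the shortest of the family, while that of Rel is the longest at 7466 bases. Relative to the treated mean, tested genes in the second sixth by length, which holds Nfkbia, had a median of -0.98 in vehicle 2, against -4.36 for Nfkbia itself. The cause of these low values was not tested.

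**Figure D2:**
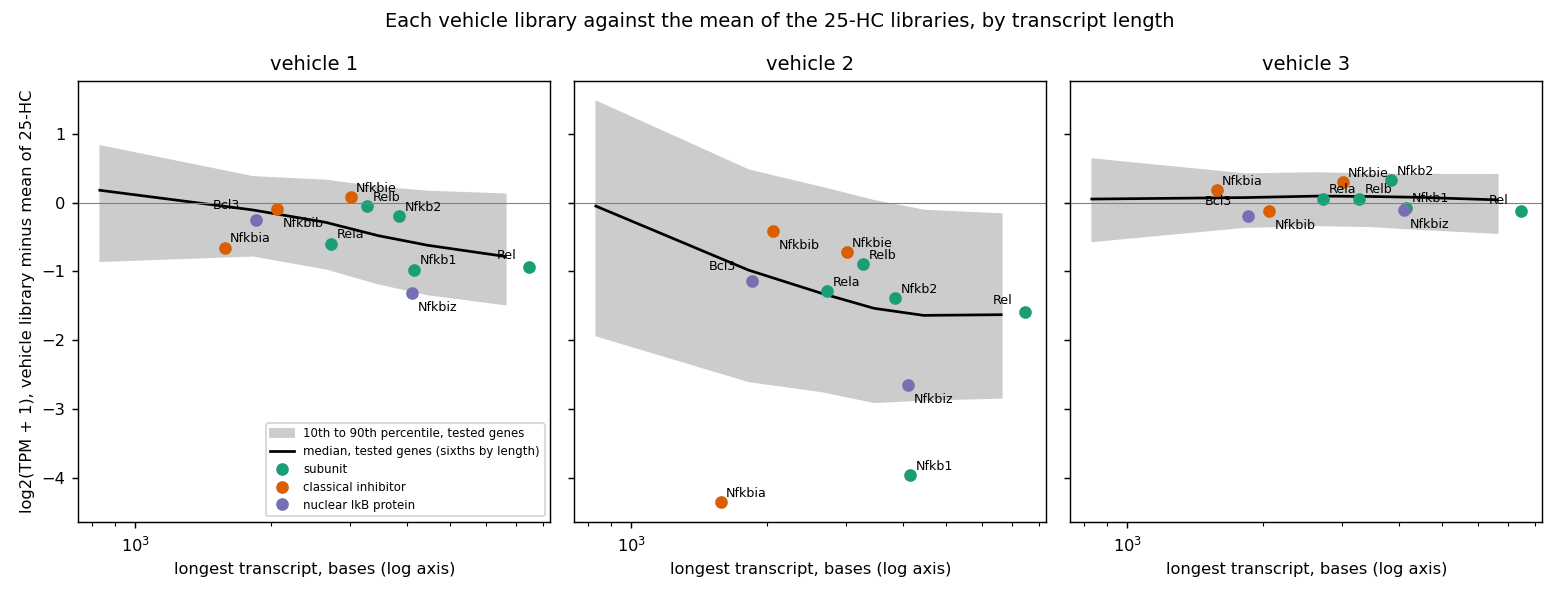
Log2(TPM + 1) of each vehicle library minus the mean of the 25-HC libraries, against the length of the longest transcript (log axis, bases), for the 10 genes over the median and the 10th to 90th percentile of the tested genes in sixths by length. In vehicle 2, Nfkbia (-4.36) and Nfkb1 (-3.96) lie below the band, and in vehicle 3 the members lie between -0.19 and 0.32.

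On the log2 scale vehicle 3 was the vehicle library nearest to the treated mean for 6 of the 10 genes, and vehicle 1 was nearest for Nfkb2, Relb, Nfkbib and Nfkbie. Against vehicle 3 alone, 5 of the 10 genes (Nfkb1, Rel, Nfkbib, Nfkbiz and Bcl3) were higher in all treated libraries and 4 (Nfkb2, Rela, Nfkbia and Nfkbie) lower in all. Relb overlapped. The 5 higher genes are those that lay above every vehicle library, so their place here was fixed in advance. A single vehicle library is above or below all treated ones for many genes, and the same counts over all tested genes were 28.5% and 45.7%. The differences were small, from -0.32 for Nfkb2 to 0.19 for Bcl3, and none of the 10 passed limma, in which the lone library is assumed to vary like the treated ones (adjusted p from 0.068 for Nfkb2 to 0.745 for Relb).

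Rescaling of the libraries changed which members separated. Median-ratio rescaling divides each library by 1 factor (0.973, 0.409 and 1.32 for vehicle 1, 2 and 3 and 1.24 to 1.26 for 25-HC) and brought the median of all tested genes to 0.0085. Nfkb1 (1.1), Rel (0.73) and Nfkbiz (0.87) then remained above vehicle in all treated libraries, which 18.7% of tested genes did. Nfkb2 (-0.19) and Nfkbie (-0.42) were below in all, which 17.9% did. Relb, Nfkbib and Bcl3 also took negative differences there, with overlap. Quantile normalization also left Nfkb1, Rel and Nfkbiz above vehicle, and Nfkbie below, against 18.6% of tested genes above and 17.3% below. Subtracting the length trend kept the same 5 genes above vehicle that separated on the deposited values, with 25.2% of 11132 genes separating upward and 6.14% downward. The smallest adjusted p of a member by limma was 0.297 after median-ratio rescaling and 0.401 after length correction.

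**Figure D3:**
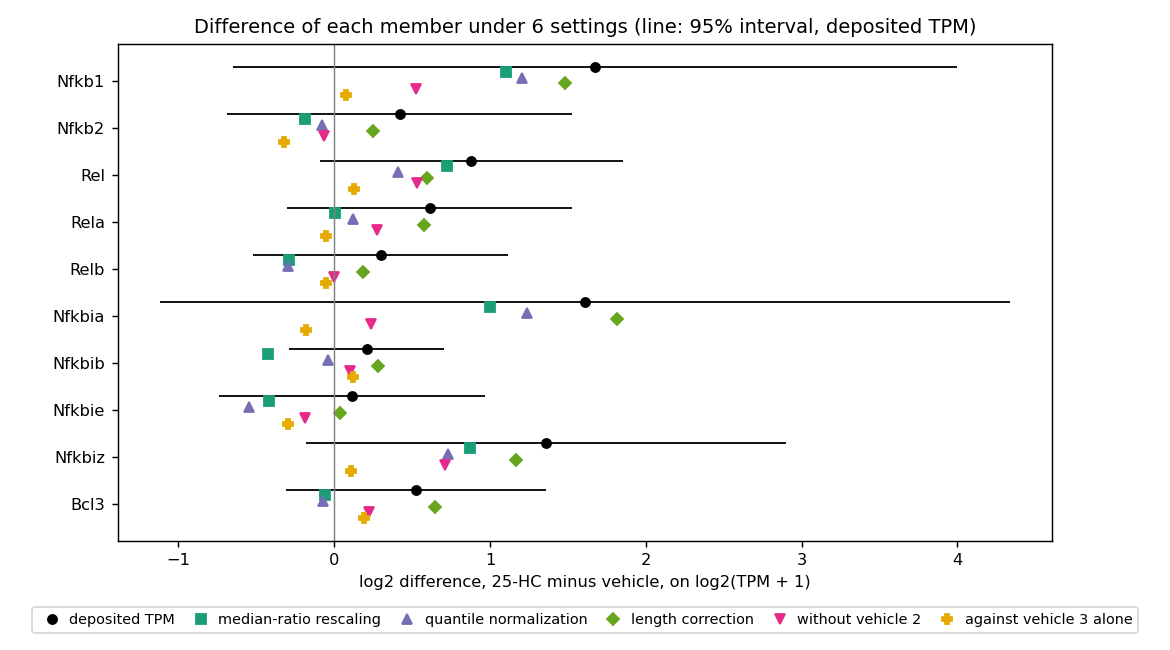
Log2 difference between 25-HC and vehicle (horizontal axis) of each of the 10 genes on the deposited TPM, with its 95% interval, and in 5 other settings. All intervals include 0, and the values of Nfkb1, Rel and Nfkbiz stay above 0 in every setting drawn, from 0.077 for Nfkb1 against vehicle 3 alone upward.

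The makeup of the subunit pool within a library does not depend on the total of that library, so shares of the summed TPM of the 5 subunit genes were compared. Nfkb1 made up 38.0%, 11.3% and 44.8% of the pool in vehicle 1, 2 and 3 and 49.3%, 48.6% and 49.0% in 25-HC 1, 2 and 3. Its share was higher in each treated library than in each vehicle library, by 17.6 percentage points on average. The share of Nfkb2 was 27.1%, 32.5% and 24.5% in vehicle and 20.5%, 19.5% and 20.5% in 25-HC, lower in each treated library by 7.88 percentage points on average. Against vehicle 3 alone these differences were 4.18 and -4.30 points, and after length correction 17.4 and -9.49 points, again without overlap. Without vehicle 2 they were 7.57 and -5.64 points. The exact permutation test gave p = 0.1 for each, the smallest that 3 libraries against 3 can give (0.15 after adjustment over the 6 values compared).

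The other subunits differed less clearly in share. Rel made up 0.611%, 0.0849% and 1.12% in vehicle and 1.37%, 1.23% and 1.40% in 25-HC, again without overlap (exact permutation p = 0.1, adjusted 0.15). After length correction the Rel share overlapped and its difference was -0.019 percentage points. The correction acts on log2(TPM + 1) and moved the Rel share in vehicle 2 from 0.0849% to 3.33%, the highest of the 6 libraries. At a level this near 0 the corrected share cannot decide whether the Rel share differs. Rela held 20.2%, 34.9% and 20.2% in vehicle and 20.2%, 20.7% and 19.4% in 25-HC, so that apart from vehicle 2 the libraries were alike (exact permutation p = 0.6). Relb held 14.1%, 21.3% and 9.48% in vehicle and 8.66%, 9.97% and 9.76% in 25-HC, with overlap (exact permutation p = 0.3).

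On the deposited TPM, transcripts of the classical inhibitors outnumbered those of the subunits in every library. The summed TPM of Nfkbia, Nfkbib and Nfkbie was 2.17, 2.16 and 1.998 times that of the subunits in vehicle 1, 2 and 3 and 1.93, 1.93 and 1.91 times in 25-HC. On the log2 scale the ratio was 1.08 ± 0.0665 in vehicle and 0.944 ± 0.0083 in 25-HC (SD, n = 3 each), lower in each treated library (exact permutation p = 0.1, adjusted 0.15). This difference of -0.13 did not hold after length correction, where it was 0.04 with overlap (exact permutation p = 0.8), and it was -0.055 against vehicle 3 alone. Length correction also shrank the excess itself. The log2 ratios were then 0.0011, 0.15 and 0.22 in vehicle 1, 2 and 3 and 0.18, 0.15 and 0.17 in 25-HC. Nearly equal deposited ratios in vehicle 1 and 2 came from different genes. Nfkbia made up 60.7%, 12.3% and 73.5% of the inhibitor sum in vehicle 1, 2 and 3 and 68.5% to 70.4% in 25-HC, and Nfkbib made up 83.2% in vehicle 2 against 24.0% to 36.3% in the other libraries.

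**Figure D4:**
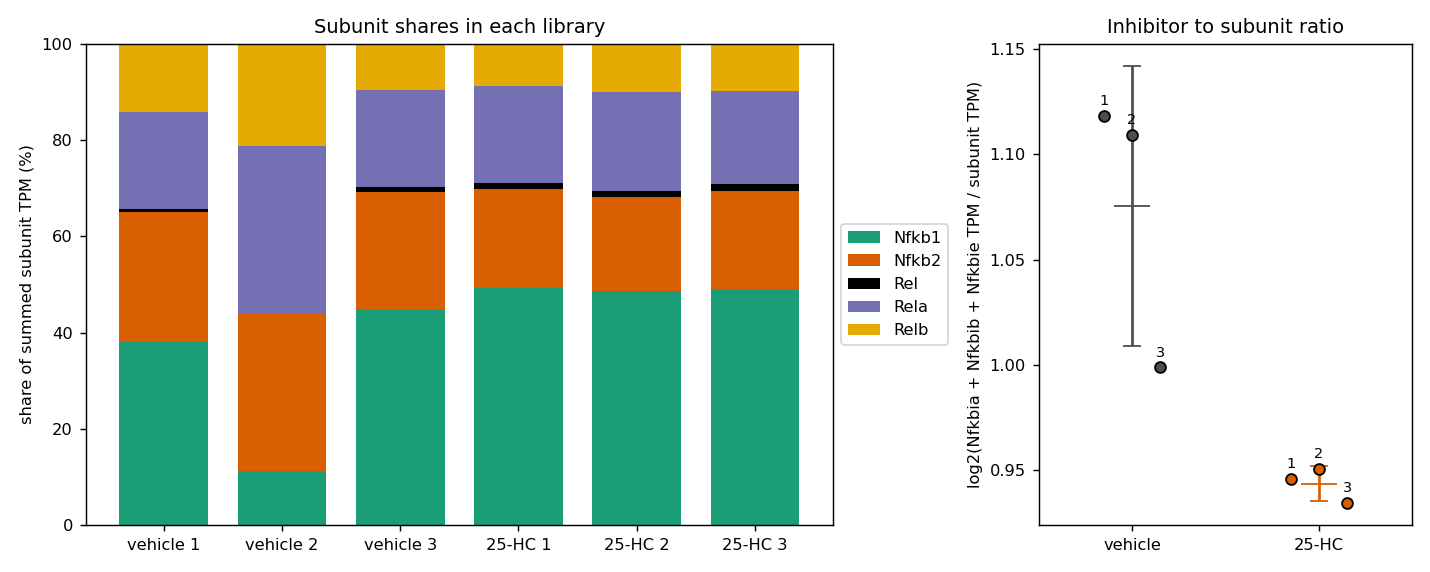
Left, share of each subunit gene in the summed TPM of the 5 subunit genes (vertical axis, percent) in each library; right, log2 ratio of summed Nfkbia, Nfkbib and Nfkbie TPM to summed subunit TPM, with the mean and SD of each group of 3. The Nfkb1 share is 48.6% to 49.3% in the treated libraries and at most 44.8% in vehicle, and the ratio is at most 0.951 in the treated libraries and at least 0.999 in vehicle.

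The rest of the pathway was read from 4 lists of known components, whose counts stand against the shares of all tested genes that separated upward and downward: 22.6% and 8.1% as deposited, 18.7% and 17.9% after median-ratio rescaling, and 28.5% and 45.7% against vehicle 3 alone. Of the kinases upstream of IkB degradation, listed together with their adaptor and regulatory subunits, 11 of 12 genes were tested. None passed limma (2 higher at an unadjusted p under 0.05). In 3 of them (Tab2, Ikbke and Ripk1, named after their values were seen) the treated libraries were all higher, and in none were they all lower (median log2 difference 0.99). After median-ratio rescaling 3 separated upward and 1 downward (median 0.62), and against vehicle 3 alone 3 and 5 (median -0.04). Tab2, an adaptor of the TAK1 kinase, had the largest difference, at 3.24, 0.66 and 7.50 TPM in the vehicle libraries against 12.6, 11.96 and 10.9 TPM after 25-HC (1.71, SE 0.60, limma adjusted p = 0.389, and 0.59 against vehicle 3 alone). Tab1, another TAK1 partner, had the only negative one (-0.12, with overlap), at 10.4, 6.84 and 12.6 TPM in the vehicle libraries against 8.51, 8.79 and 9.17 TPM after 25-HC. The IkB kinase genes Chuk, Ikbkb and Ikbkg, picked with their values in view, had overlapping groups.

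Adaptors and ubiquitin ligases were all 12 tested, with none passing limma (1 higher at an unadjusted p under 0.05), 3 separated upward and 1 downward (median 0.42). After median-ratio rescaling 2 separated upward and 3 downward (median -0.18), and against vehicle 3 alone 3 and 7 (median -0.15). Fbxw11, an F-box protein of the ligase that recognises phosphorylated IkB, was at 13.2, 2.18 and 40.2 TPM in the vehicle libraries against 30.4, 32.9 and 32.2 TPM after 25-HC. Its difference of 1.42 turned to -0.33 against vehicle 3 alone. Sharpin, a part of the linear ubiquitin ligase, was lower in each treated library, at 56.6, 69.6 and 59.5 TPM in the vehicle libraries against 45.4, 52.1 and 54.9 TPM after 25-HC (-0.28, SE 0.22, limma adjusted p = 0.428). The groups overlapped after length correction (-0.17), and the difference was -0.91 after median-ratio rescaling. Deubiquitinases and other restraints were 10 of 10 tested, with none passing limma (0 at an unadjusted p under 0.05), 1 separated upward and 0 downward (median 0.44). After median-ratio rescaling 2 separated upward and 1 downward (median -0.15), and against vehicle 3 alone 3 and 3 (median -0.05). The gene above vehicle as deposited, Nkiras2, a small GTPase-like protein that binds IkB, was at 17.4, 6.68 and 32.3 TPM in the vehicle libraries against 39.6, 38.0 and 40.0 TPM after 25-HC. Its relative Nkiras1 had the most negative difference of the list (-0.27, with overlap). Nfkbid, a further nuclear IkB gene chosen after its values were seen, was at 16.4, 7.02 and 22.7 TPM in the vehicle libraries against 15.04, 15.06 and 13.3 TPM after 25-HC, with overlap. Its log2 difference was 0.05 as deposited, and -0.53 with no overlap after median-ratio rescaling (limma adjusted p = 0.297).

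Genes known as NF-kB targets lay on both sides of 0. Of 23 listed, 19 were tested and none passed limma (1 higher and 2 lower at an unadjusted p under 0.05), and 4 separated upward and 3 downward, with a median log2 difference of 0.66. This list shares genes with those of the adaptors and of the restraints, so a gene can be counted in more than 1 list. After median-ratio rescaling 4 separated upward and 5 downward, and against vehicle 3 alone 4 and 11. Traf1, a signalling adaptor induced through NF-kB, had the most negative difference. It was at 31.9, 25.5 and 26.6 TPM in vehicle 1, 2 and 3 against 13.0, 12.4 and 13.1 TPM after 25-HC. Here the vehicle libraries lay close together and well above every treated library. The log2 difference was -1.06 (SE 0.24, unadjusted p = 0.0038 and adjusted p = 0.389 by limma). Other pseudocounts or filters, a replicate block and fewer libraries cannot undo a separation seen over all libraries. Median-ratio rescaling (-1.67) and quantile normalization (-1.53) moved the median of all tested genes down, from 0.52 to 0.0085 and 0.020. They therefore tended to widen a downward difference and were no check of this one. Length correction (-1.19) could have undone the separation and kept it. Against vehicle 3 alone the difference of Traf1 was -0.996, and it was 1 of the 11 targets that lay below there. Ccl5, a chemokine, and Gadd45b, a stress-induced gene, both chosen after their values were seen, were the other targets below vehicle in every treated library. Ccl5 was at 27.9, 38.0 and 20.3 TPM in the vehicle libraries against 13.6, 15.1 and 13.1 TPM after 25-HC, and Gadd45b was at 43.6, 27.7 and 43.3 TPM in the vehicle libraries against 26.0, 27.2 and 24.9 TPM after 25-HC. Their log2 differences were -0.95 and -0.51. After length correction Ccl5 was at -0.41, still without overlap, and Gadd45b at -0.19, with overlap. Tnfaip2, a target induced by TNF, had the largest difference, at 16.2, 3.71 and 48.7 TPM in the vehicle libraries against 71.1, 68.4 and 72.8 TPM after 25-HC (2.17, SE 0.81, limma adjusted p = 0.389, and 0.53 against vehicle 3 alone).

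**Figure D5:**
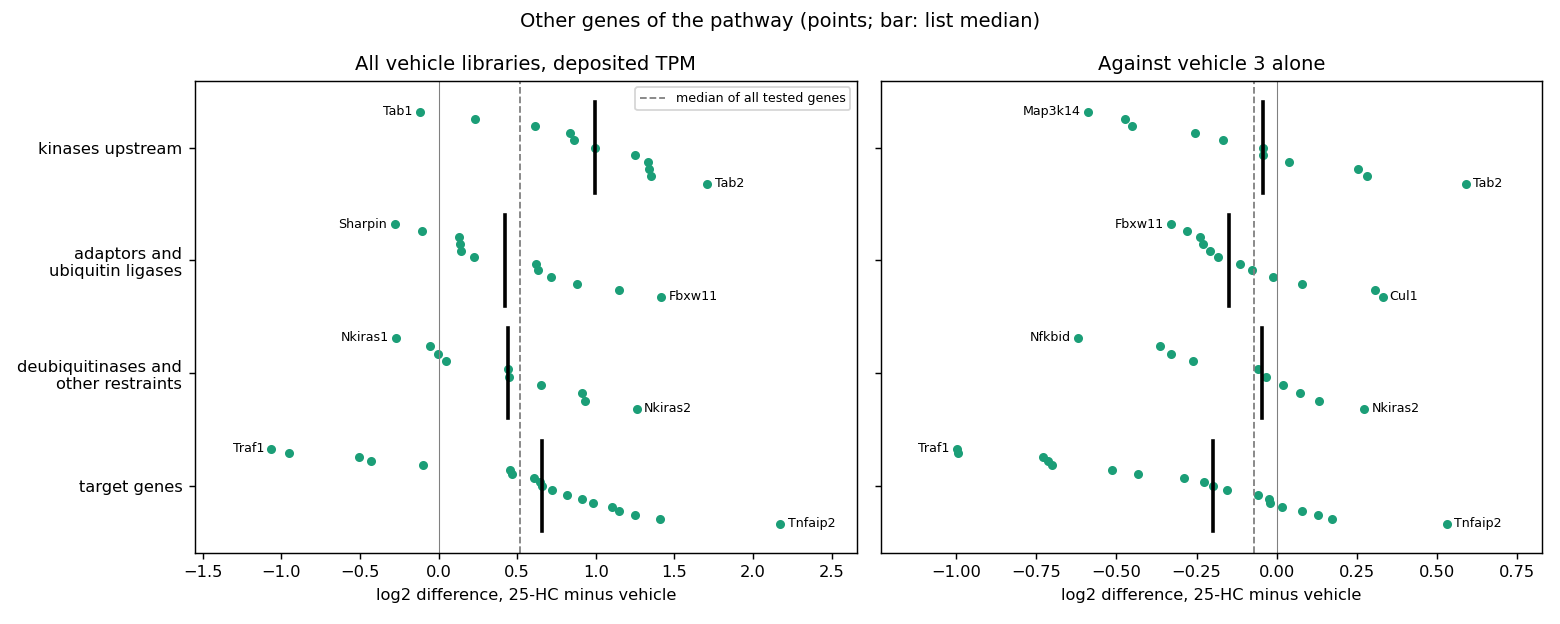
Log2 difference between 25-HC and vehicle (horizontal axis) of each tested gene in 4 pathway lists, with the list medians (bars) and the median of all tested genes (dashed), for all vehicle libraries on the left and vehicle 3 alone on the right. Traf1 lies near -1 in both panels, and the list medians move from between 0.42 and 0.99 on the left to between -0.20 and -0.04 on the right.

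Genes outside the family with the most similar pattern over the 6 libraries were sought for the members with the largest and the smallest log2 difference, by the root mean square difference of centred log2(TPM + 1). For Nfkb1 these were Actl6a (0.041), Srsf5 (0.047) and Rusc2 (0.051). Actl6a, a subunit of chromatin remodelling complexes, was at 41.5, 3.86 and 74.0 TPM in the vehicle libraries against 79.1, 75.9 and 79.2 TPM after 25-HC. For Nfkbie they were Fbxw5 (0.019), Aldh1b1 (0.047) and Isyna1 (0.048), all highest in vehicle 3 and lowest in vehicle 2. Repeats of this search without a library were not made.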

How the data were processed

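The tools RSEM, StringTie and HISAT2 and the genome build GRCm39 are named, without role or order, per the submitters' processing notes. The sources used here state no version, annotation release or strand setting. A single matrix of TPM was deposited by the authors, per gene and library, with 2 decimals, in which every library sums to 1000000, so depth is unknown and no counting interval can be given. A further 11 columns were empty, and no columns of other samples were present. Groups and replicate numbers came from the titles.

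A symbol shared by several identifiers stayed with the one of highest mean TPM. The 12092 genes averaging 1 TPM or more went into limma 3.58.1 (R 4.3.3) as log2(TPM + 1). Moderation used a variance trend, tests were two-sided, and p-values were adjusted by Benjamini-Hochberg over all tested genes (threshold 0.05). That scale understates differences of low genes. No replicate block was used. Shares and the inhibitor ratio were compared with two-sided exact permutation tests. "Separated" means that every library of a group lies above, or below, every library of the other. The limma step was also run on simulated data. No outcome of that run is given here, so it does not show how limma performs on these libraries. For every member the SD of TPM was larger in vehicle than in the treated libraries (34.4 against 1.49 TPM for Nfkb1).

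Alternatives were pseudocounts of 0.1 and 5, the filter dropped or raised to 5 TPM, quantile normalization, median-ratio rescaling, a loess trend on log2 transcript length (span 0.75, degree 2) subtracted per library, a replicate block, leaving out each library, and vehicle 3 alone. Lengths are of the longest transcript in GENCODE M21 (92.1% of tested genes matched by identifier). Promoter sequences are from RefSeq on GRCm38.p6. Python 3.11.15 was used, with pandas 2.3.3, numpy 2.4.6 and matplotlib 3.10.9. All 10 members are named, as are the largest and smallest log2 difference of each list and 3 nearest patterns for a pair of members; any further gene is marked in the text as picked with its values in view. Members, lists and tests were chosen with earlier results of these data known.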

Additional observations from a re-analysis of the deposited data

How the results depend on the processing

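No member passed limma in any of the 15 other settings, and Nfkb1, Rel and Nfkbiz kept a positive difference in every one in which they were tested. Median-ratio rescaling gave 3 members above and 2 below vehicle without overlap (18.7% and 17.9% of all tested genes), with a median of -0.027 and differences of -0.19 for Nfkb2, -0.29 for Relb, -0.42 for Nfkbib, -0.42 for Nfkbie and -0.059 for Bcl3. Quantile normalization gave 3 and 1 (18.6% and 17.3% of all tested genes), with -0.077 for Nfkb2, -0.30 for Relb, -0.040 for Nfkbib, -0.55 for Nfkbie and -0.072 for Bcl3. Against vehicle 3 alone 4 members lay below, with -0.32 for Nfkb2, -0.054 for Rela, -0.053 for Relb, -0.18 for Nfkbia and -0.30 for Nfkbie. After length correction the difference was -0.019 percentage points for the Rel share and 0.040 for the inhibitor ratio, both opposite to the deposited values. The Rel value rests on a vehicle 2 share that the correction moved from 0.0849% to 3.33%, so it decides nothing about Rel. For the other reversals the cause was not tested. Leaving out each library in turn gave 5 to 8 members above and 0 to 1 below vehicle. The upward count cannot fall under 5 there, since genes separated over all libraries stay separated. It was 8 without vehicle 3, where 59.5% of all tested genes lay above and 13.2% below. Without vehicle 2, 1 member (Nfkbie) lay below, and 23.6% of all tested genes lay above and 16.9% below. The differences ranged from -0.063 to 0.79 for Nfkb2, from -0.00090 to 0.47 for Relb and from -0.19 to 0.32 for Nfkbie, each lowest without vehicle 2.

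Over all tested genes, limma called 1 as deposited, 0 with a pseudocount of 5, without a filter, with a minimum of 5 TPM, after length correction and with a replicate block, 2 after median-ratio rescaling, 5 after quantile normalization and 1312 against vehicle 3 alone. Leaving out a library gave 0 to 722 (722 without vehicle 3, 13 without vehicle 2) and 4062 to 8788 genes without overlap, and vehicle 3 alone gave 8966. The replicate block changed no call of a member, and the deviations of same-numbered libraries from their group means had r across genes of -0.013, 0.056 and 0.030, so the numbers were not taken to pair the samples (of the vehicle libraries, only vehicle 2 correlated best with its own number). TPM keep no depth, which leaves the precision of low members such as Rel unknown.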
